A study of Mus musculus with 2 samples.

Results

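Checkpoint and exhaustion genes were followed across the leukocytes of B16 melanoma by their raw counts of unique molecular identifiers (UMIs, one per captured mRNA molecule). The genes were the rows of the deposited gene list with the symbols Pdcd1, Lag3, Havcr2, Tigit, Ctla4, Tox, Entpd1, Cd160, Btla and Cd274, so 10 of 27998 listed genes. The choice rests on the symbols. Together they held 24243 of the 89174246 UMIs. The data were 2 scRNAseq libraries of live CD45+ cells sorted from subcutaneous B16 tumors, one from mice given h219-LLG and one from mice given an isotype control antibody. h219-LLG is a humanized antagonist antibody to LAIR1, a collagen-binding inhibitory receptor of leukocytes, with changes in its Fc part. The mice of both groups were C57BL/6 animals aged 6 to 8 weeks, which carried a human LAIR1 transgene switched on by Vav-cre and lacked mouse LAIR1 (LAIR1-/-). Vav-cre is active throughout the blood lineage, so human LAIR1 was not limited to one cell type. The sources used here do not give the number of animals in each sort. With 1 library per condition, no test between the conditions was possible. All intervals are at 95% and cover counting error only.

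Checkpoint receptors are inhibitory surface proteins that T cells acquire after activation. When antigen persists, as in a tumor, cytotoxic T cells can keep several of these receptors at once, together with the transcription factor Tox, in a state called exhaustion. The same receptors also serve other cells in the TME. Regulatory T cells (Tregs) carry CTLA-4 at a high level, myeloid cells carry TIM-3 and CD39, B cells carry BTLA, and PD-L1, the ligand of PD-1, is carried by antigen-presenting cells and induced in many cells by interferon.

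Cells were placed in classes by the UMIs of marker genes, none of which was among the 10 genes. Of 7433 kept barcodes in the h219-LLG library and 5607 in the control library, 6615 and 5032 passed 1 gate. The kept barcodes had a median depth of 5050 and 5796 UMIs, and 13 barcodes were shared by the libraries. Barcodes with UMIs of 2 lineages, 538 and 282, were left out as mixed. T cells were divided by a naive sum (marker genes of naive T cells, among them Ccr7 and Lef1) and an effector sum (Ccl5, Nkg7, Cxcr6, S100a4, Id2 and Itgb1) into naive, effector and a class with UMIs of both. Foxp3 T cells were those with a UMI of Foxp3 and none of Cd8b1. Other T cells were the remaining T cells with UMIs of neither Cd4 nor the Cd8 genes (Cd8a and Cd8b1), or of both. Of 132 checks with marker genes that the gates did not use, 125 were higher in the class than in the other cells. The 7 others were Gzmb, Gzmk or Prf1 in CD8 cells with both sums, Tnfrsf4 in CD4 naive cells, and Prf1 in CD8 effector cells of the control library. The CD8 cells with both sums had less Ccl5, a gene of the effector sum, than CD8 effector cells. It was at 595 and 416 CPM (UMIs of the gene per 1000000 UMIs of the class) against 7715 and 6820 CPM. Values here and below are h219-LLG first, then control. Ccr7, of the naive sum, was at 390 and 561 CPM against 7.13 and 16.1 CPM in CD8 effector cells. Both genes are in the gates, so these levels do not show how near the class is to naive cells. Gzmb, which is in no gate, was at 340 and 118 CPM in CD8 effector cells. The part of such differences within that class in its ratios was not tested. T cell receptor genes were not in the gene list used here, so that gamma-delta T cells stayed among the other T cells.

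**Figure D1:**
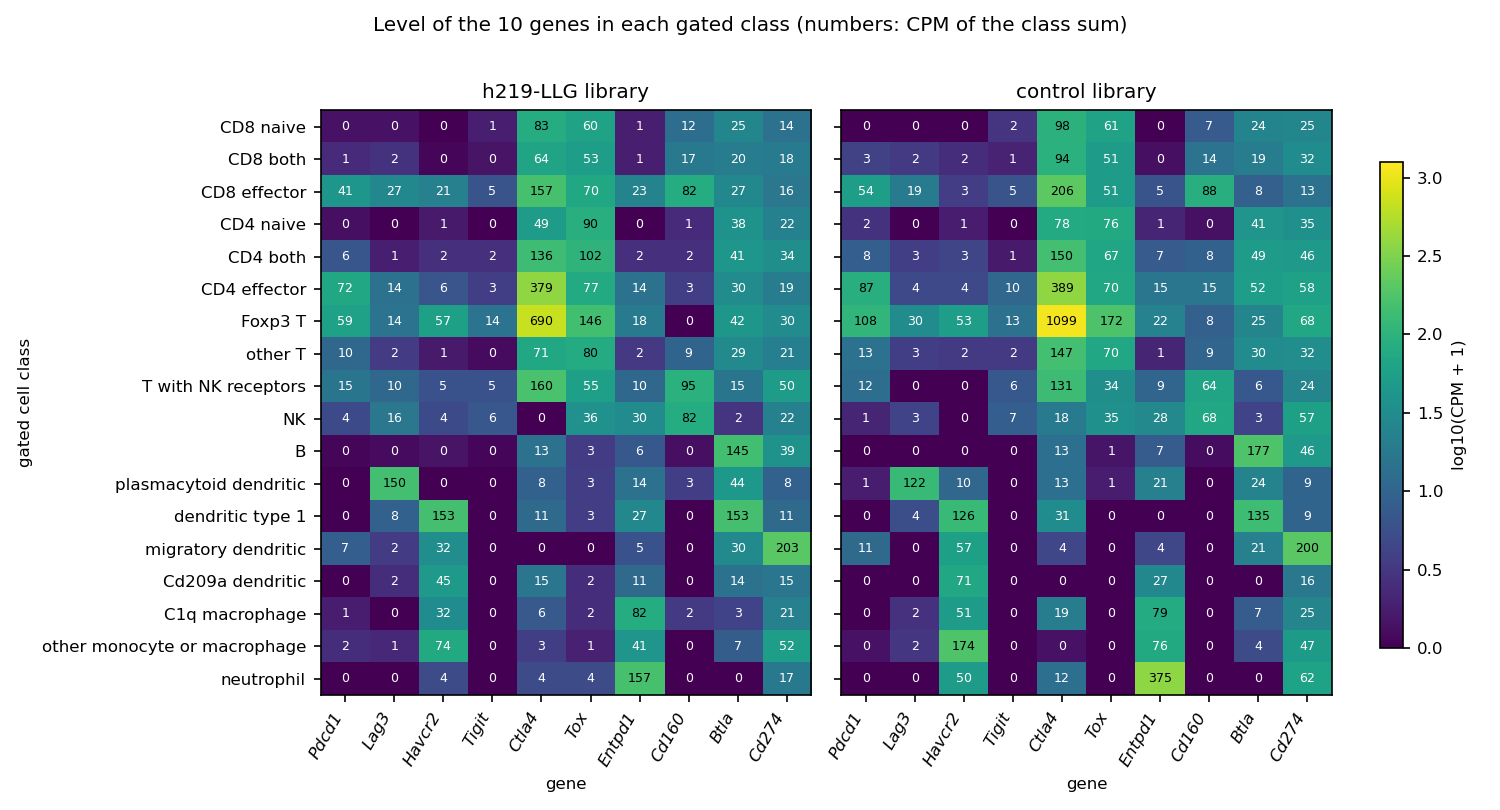
CPM of the 10 genes (columns) in 18 gated classes (rows) of the h219-LLG library (left) and the control library (right), with color on a log10(CPM + 1) scale. Ctla4 stands out in Foxp3 T cells (690 and 1099 CPM), Lag3 in plasmacytoid dendritic cells (150 and 122 CPM) and Cd274 in migratory dendritic cells (203 and 200 CPM).

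Ctla4 encodes CTLA-4, which takes the B7 ligands away from the co-stimulatory receptor CD28. In the mm10 annotation it lies on chromosome 1 from 60887000 to 60915832, plus strand. Foxp3 T cells had the most Ctla4 in both libraries, 690 CPM (interval 619 to 767) with h219-LLG and 1099 CPM (1031 to 1170) in control. CD4 effector cells followed at 379 and 389 CPM, and CD8 effector cells were at 157 and 206 CPM. The order Foxp3 T, CD4 effector, CD8 effector was the same in both libraries, with intervals that did not overlap between the first and the second. Among 72 and 118 Foxp3 T cells, 62 (86.1%) and 106 (89.8%) had a Ctla4 UMI. Naive T cells had the gene too. In CD8 naive cells, 107 of 438 (24.4%) and 102 of 309 (33.0%) had a Ctla4 UMI, at a median depth of 5354 and 6874 UMIs. B cells, which should lack it, had one in 3.27% and 3.07% of cells, at 3515 and 4256 UMIs. At a common depth of 1500 UMIs the CD8 naive share was 9.79% and 12.3% and the B cell share 1.46% and 1.16%, so naive T cells stood above that background in both libraries.

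Ctla4 is a gene on which the comparisons turn. The part of its promoter printed below has a match to the core that NFAT binds (letters GGAAAA, searched on both strands). It is from RefSeq, build GRCm38.p6, chr1:60908855-60908910, plus strand, with the match in capitals. Binding of NFAT there was not tested. NFAT is a transcription factor that calcium signals of the T cell receptor carry to the nucleus.
Ctla4: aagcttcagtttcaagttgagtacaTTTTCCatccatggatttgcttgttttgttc
The match lies on the opposite strand at position -145 from the RefSeq start. The RefSeq promoter table, which holds 300 bases around each start, matched 8 of the 10 genes with 10 promoters. The core was in 3 of these 10, those of Ctla4, Entpd1 and Tigit, and in 23.4% of 32851 promoters. A core of interferon-response elements (GAAANNGAAA) was in 0 of the 10 and in 3.44% of all. The GAS core that STAT factors bind (TTCNNNGAA) was in 1, that of Cd160, and in 8.30% of all. The AP-1 site (TGANTCA) was in 1, that of Havcr2, and in 7.81% of all. No match overlapped another.

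Pdcd1, on chromosome 1 from 94038305 to 94052553 (minus strand), encodes PD-1. Of the gated classes, effector T cells and Foxp3 T cells had the most. Its level was 71.9 and 87.0 CPM in CD4 effector cells, 58.7 and 108 CPM in Foxp3 T cells and 41.0 and 53.5 CPM in CD8 effector cells. In the h219-LLG library the intervals of the 3 classes overlapped. In control those of Foxp3 T cells (87.3 to 132) and CD8 effector cells (32.7 to 82.6) did not, and that of CD4 effector cells (63.5 to 116) overlapped both. The mixed and ungated barcodes left out of the classes held 28.5% and 28.3% of all Pdcd1 UMIs. In CD8 naive cells there was 1 Pdcd1 UMI in the h219-LLG library and 0 in control, where a count of 0 allows up to 1.43 CPM. B cells had 1 UMI and 0. A Pdcd1 UMI was seen in 12 of 104 (11.5%) and 12 of 64 (18.8%) CD8 effector cells, 16 of 78 (20.5%) and 18 of 98 (18.4%) CD4 effector cells, and 12 of 72 (16.7%) and 42 of 118 (35.6%) Foxp3 T cells.

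Tox encodes a nuclear factor that maintains exhausted T cells and is also needed in the thymus for CD4 T cells. It was spread over all T cell classes rather than kept to effector cells. Foxp3 T cells had 146 and 172 CPM. CD8 naive cells had 60.2 and 60.6 CPM, and CD8 effector cells 69.5 and 50.8 CPM, with overlapping intervals. NK cells had 35.9 and 35.3 CPM. B cells had little, at 2.58 and 0.512 CPM.

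Lag3, whose product binds MHC class II, was highest outside the T cells. Plasmacytoid dendritic cells, which make type I interferon, had 150 (113 to 195) and 122 (104 to 142) CPM. A Lag3 UMI was found in 22 of 40 (55.0%) and 74 of 111 (66.7%) of these cells. CD8 effector cells had 26.7 and 18.7 CPM from 15 and 7 UMIs, Foxp3 T cells 14.2 and 30.3 CPM, and B cells 2 UMIs and 0. Plasmacytoid dendritic cells thus gave 29.9% of all Lag3 UMIs in the h219-LLG library and 59.9% in control, where they were also more numerous.

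Tigit, a receptor for poliovirus receptor family ligands, was near the limit of detection, with 32 UMIs in the h219-LLG library and 71 in control. Its highest level was in Foxp3 T cells, 14.2 (5.69 to 29.2) and 13.5 (6.96 to 23.5) CPM. Cd160, which binds HVEM and is carried by NK and cytotoxic T cells, was at 82.0 and 88.3 CPM in CD8 effector cells and 81.7 and 68.4 CPM in NK cells. The interval of each overlapped that of the other, and T cells with NK receptors were at 95.3 and 64.1 CPM from 19 and 37 cells. CD8 naive cells had 12.2 and 6.68 CPM of Cd160.

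Havcr2 encodes TIM-3, a receptor of exhausted T cells that dendritic cells and macrophages also carry. Myeloid cells other than plasmacytoid dendritic cells held 59.4% and 54.0% of its UMIs. Dendritic cells type 1, which cross-present antigen, had 153 and 126 CPM from 23 and 11 cells. The monocytes and macrophages without high complement C1q (called other monocytes or macrophages) had 74.4 and 174 CPM from 360 and 220 cells. In Foxp3 T cells the level was 56.6 and 52.8 CPM, and in CD8 effector cells 21.4 and 2.68 CPM, from 12 UMIs in 7 cells and from 1 UMI. CD8 naive cells had 0 UMIs in both libraries. The stretch of the Havcr2 promoter with its AP-1 match (RefSeq, build GRCm38.p6, chr11:46454706-46454762, plus strand, match in capitals at position -200) is shown because Havcr2 differed most between the libraries in monocytes and macrophages. AP-1 is a Fos and Jun dimer active in stimulated cells, and its binding to this match was not tested.
Havcr2: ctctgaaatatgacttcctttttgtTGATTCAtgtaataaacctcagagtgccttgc

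Entpd1 encodes CD39, which degrades extracellular ATP. Neutrophils had the highest level, 157 and 375 CPM, from 37 and 30 UMIs in 61 and 23 cells. C1q macrophages had 81.9 and 78.9 CPM, and other monocytes or macrophages 40.5 and 75.5 CPM. T cells had less. Entpd1 was at 23.2 and 5.35 CPM in CD8 effector cells, from 13 and 2 UMIs, and 18.2 and 22.5 CPM in Foxp3 T cells. CD8 naive cells had 0.842 CPM and 0 UMIs. Foxp3 T cells stood above them in both libraries, and CD8 effector cells with h219-LLG. In control the interval of CD8 effector cells (0.648 to 19.3) overlapped that of CD8 naive cells, so no order is read there.

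Btla encodes a receptor for HVEM. B cells had 145 (137 to 153) and 177 (168 to 186) CPM, and dendritic cells type 1 had 153 and 135 CPM. A Btla UMI was found in 865 of 2327 (37.2%) and 816 of 1726 (47.3%) B cells. In other monocytes or macrophages the level was lower, at 7.26 and 4.27 CPM from 24 and 10 UMIs. T cells lay between, with 37.9 and 40.8 CPM in CD4 naive cells. Cd274 encodes PD-L1. Migratory dendritic cells had by far its highest level, 203 (162 to 252) and 200 (151 to 259) CPM, and 28 of 39 (71.8%) and 17 of 27 (63.0%) of them had a UMI. The second place differed between the libraries. It was held by other monocytes or macrophages with h219-LLG (52.3 CPM) and by Foxp3 T cells in control (68.5 CPM).

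Genes with the most similar pattern were sought over 27 class sums (the classes with at least 50 cells, in each library) by Pearson's r of log2(CPM + 1). These sums share 2 libraries and differ in depth, so r is a description. Tox was closest to Cd247 (r = 0.98) and Zap70 (0.97), 2 signaling parts of the T cell receptor. Ctla4 was closest to Slamf1 and Izumo1r (both 0.90), Pdcd1 to Spock2 (0.94), and Tigit to Prkar1a (0.92), though Tigit rests on very few UMIs. Havcr2 was closest to Pkm (0.89), a glycolytic enzyme, and Entpd1 to Ncf4 (0.93), a subunit of the phagocyte oxidase. Btla was closest to Ralgps2 (0.93) and Lag3 to Med10 (0.89). Cd160 was closest to Nkg7 (0.90), a gene of the effector sum. Cd274 had no close match, with 0.70 for Arid5b. Migratory dendritic cells, highest in Cd274, and dendritic cells type 1 had under 50 cells in each library and were not among the sums. Plasmacytoid dendritic cells, highest in Lag3, entered from the control library only.

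To ask how the genes differed between the conditions, UMIs were summed over each class, and the CPM ratio of h219-LLG over control was taken where a class had at least 50 cells in each library and the gene at least 50 UMIs over both. Such a pair counts as measured, and as higher or lower where the ratio was at least 1.5 or at most 0.667. There were 46 measured pairs of a gene and a class, in 12 classes. In 31 pairs the ratio was under 1 and in 15 above 1. Past the fold, 13 pairs were lower with h219-LLG, 1 was higher and 32 were within it. The 13 were 6 pairs of Cd274, 3 of Ctla4, 2 of Havcr2, 1 of Pdcd1 and 1 of Entpd1. Pairs of one gene in several classes share the 2 libraries and are no replicates.

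Counts by class are read here against all genes measured by the same rule. In Foxp3 T cells 3 of 5 genes were lower, against 11.8% of 3792 genes, and 0 were higher, against 9.81%. The median log2 ratio of the 5 was -0.67. In other monocytes or macrophages it was 2 of 3 lower, against 4.58% of 7274 genes, and 0 higher, against 7.93%. In other T cells 2 of 6 were lower (all genes 4.96%) and 0 higher (8.68%). These 3 classes held 7 of the 13 lower pairs. CD4 naive cells had 2 of 4 lower (6.19%) and 0 higher (9.26%). CD8 naive cells had 1 of 4 lower (6.84%) and 0 higher (8.34%), and CD8 cells with both sums 1 of 5 lower (5.23%) and 0 higher (8.95%). With so few genes, 1 call is already far above such a percentage and says little. NK cells had 1 of 3 lower (7.28%) and 0 higher (6.09%), and C1q macrophages 1 of 2 lower (5.72%) and 0 higher (21%). CD4 cells with both sums had 1 of 4 higher (6.9%) and 0 lower (7.85%). No gene passed the fold in CD8 effector cells, with 3 measured (9.82% of all genes higher, 8.39% lower). The same held for the 3 measured in CD4 effector cells (9.32% higher, 8.8% lower) and the 4 in B cells (6.79% higher, 4% lower).

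**Figure D2:**
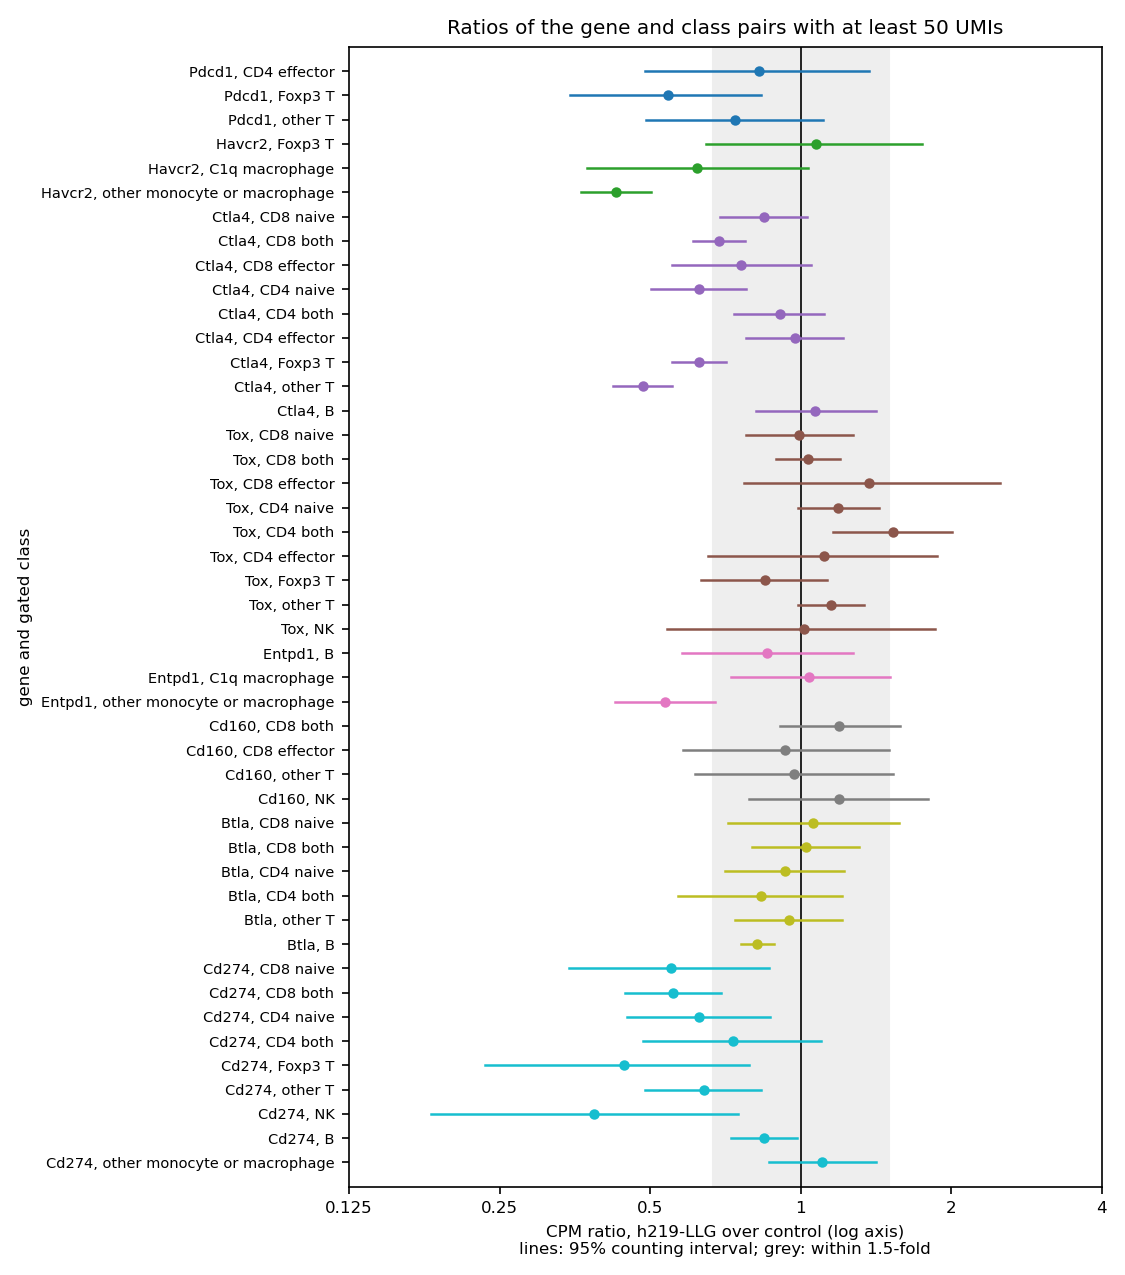
Points give the CPM in the h219-LLG library divided by that in control (log axis) and lines the 95% counting interval, for the 46 measured pairs of a gene and a class, colored by gene; the grey band is within 1.5-fold. All 9 Cd274 pairs except that in other monocytes or macrophages lie below 1, and the Tox points lie on both sides of it.

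Cd274 was lower with h219-LLG in the measured classes of T and NK cells and not in other monocytes or macrophages. In NK cells it had 11 UMIs (21.9 CPM) against 53 (56.6 CPM), a ratio of 0.387 (0.182 to 0.750). In Foxp3 T cells it had 15 UMIs (30.3 CPM) against 61 (68.5 CPM), a ratio of 0.443 (0.234 to 0.789). The ratio was 0.550 in CD8 naive cells, 0.557 in CD8 cells with both sums, 0.627 in CD4 naive cells and 0.640 in other T cells, with intervals below 1. The level was thus lower in all 7 T and NK classes measured, 6 of them past the fold, and CD4 cells with both sums were at 0.733 (0.484 to 1.10). B cells were within the fold at 0.845 (0.727 to 0.983). Other monocytes or macrophages stood at 52.3 and 47.4 CPM, a ratio of 1.10 (0.866 to 1.42). That ratio was 1.42 (0.851 to 2.46) in the cells with a UMI of Ly6c2, a marker of classical monocytes, 1.38 (1.04 to 1.83) in those without it, and 0.801 without cells with a UMI of the stress genes Hspa1a or Hspa1b. No direction is read from it. Whether the lymphocyte ratios differ from the myeloid one was not tested.

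Ctla4 was lower in Foxp3 T cells, at 690 against 1099 CPM from 341 and 979 UMIs, a ratio of 0.628 (0.553 to 0.711). Of the Foxp3 T cells, 27 of 72 and 68 of 118 had 5 or more Ctla4 UMIs, and the highest count in a cell was 27 and 46, at a median depth of 5073 and 6516 UMIs. At 1500 UMIs a cell, 57.2% (44.9 to 68.9) and 65.8% (56.5 to 74.3) were expected to have any, with overlapping intervals. Most Foxp3 T cells of both libraries thus carried Ctla4, and those of control carried more of it. In other T cells the level was 71.0 against 147 CPM, a ratio of 0.484 (0.422 to 0.554), and in CD4 naive cells 48.7 against 77.9 CPM, a ratio of 0.625 (0.501 to 0.777). Ikzf2, a gene high in Foxp3 T cells (860 and 1240 CPM), was at 81.7 against 147 CPM in other T cells. The part of the make-up of other T cells in their Ctla4 ratio was not tested. The CD4 naive ratio came within the fold under 5 alternatives, up to 0.804 when Id2 and Itgb1 were taken out of the effector sum. CD8 cells with both sums were at 64.5 against 93.9 CPM, a ratio of 0.687 (0.609 to 0.774), inside the fold. In CD4 effector cells the libraries were close, at 379 and 389 CPM, a ratio of 0.975 (0.779 to 1.22), and CD4 cells with both sums were at 0.908 (0.737 to 1.12). CD8 naive cells were at 0.844 (0.690 to 1.03). CD8 effector cells were at 0.761 (0.554 to 1.05), and at 1.31 with cells thinned to 1500 UMIs. B cells, read as background, were at 1.07 (0.813 to 1.41). A difference of Ctla4 in CD4 effector cells was not detectable at this depth.

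**Figure D3:**
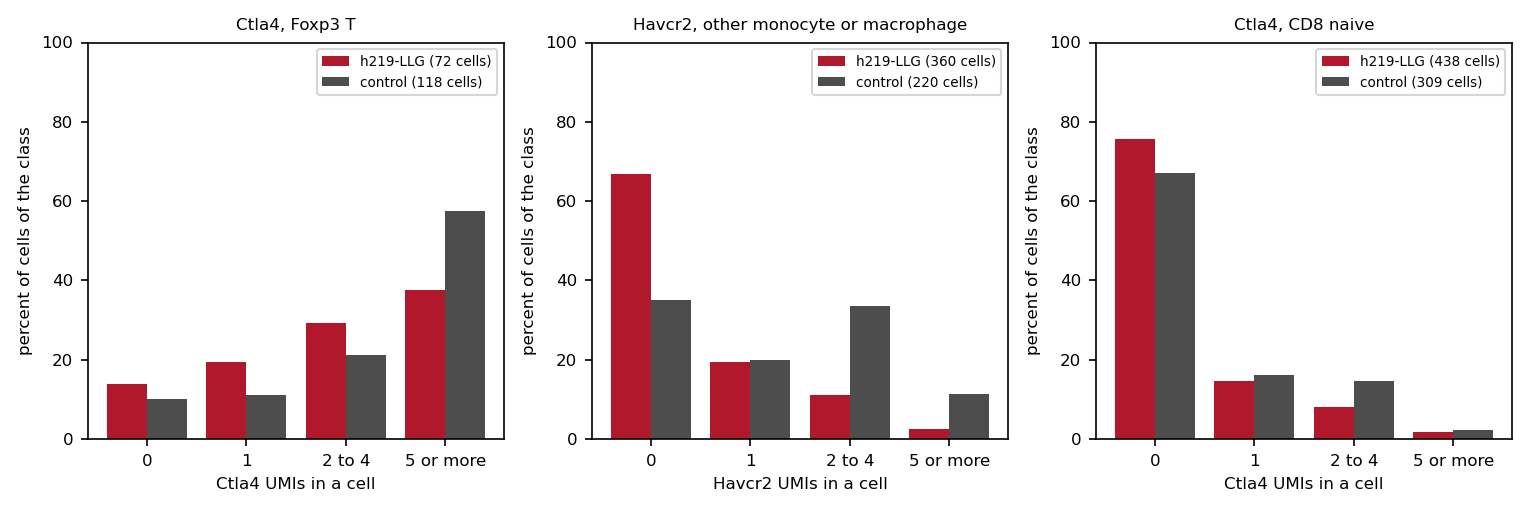
Percent of cells (vertical axis) with 0, 1, 2 to 4 and 5 or more UMIs (horizontal axis) of Ctla4 in Foxp3 T cells, Havcr2 in other monocytes or macrophages and Ctla4 in CD8 naive cells, for the h219-LLG (red) and control (grey) libraries. Cells with 5 or more Ctla4 UMIs were 27 of 72 Foxp3 T cells with h219-LLG and 68 of 118 in control.

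Pdcd1 in Foxp3 T cells had 29 UMIs (58.7 CPM) against 96 (108 CPM), a ratio of 0.544 (0.346 to 0.832). Foxp3 T cells with a naive sum of at least 2 UMIs were 65.3% of the class with h219-LLG and 48.3% in control, and they had less Pdcd1 in both libraries. Among the cells with a naive sum of at most 1, 25 and 61 in number, Pdcd1 was at 137 and 155 CPM, a ratio of 0.886 (0.467 to 1.58). Among the others it was at 36.4 and 71.7 CPM, a ratio of 0.508 (0.253 to 0.965). The intervals of both parts overlapped, and their difference was not tested. Ctla4 had a ratio of 0.677 (0.534 to 0.850) in the first part and 0.645 (0.552 to 0.752) in the second. Pdcd1 was within the fold in CD4 effector cells at 0.826 (0.490 to 1.37) and in other T cells at 0.740 (0.491 to 1.11). In CD8 effector cells it fell short of the minimum, with 23 and 20 UMIs.

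Havcr2 had the lowest ratio of the myeloid pairs. Other monocytes or macrophages held 246 UMIs (74.4 CPM) against 408 (174 CPM), a ratio of 0.427 (0.363 to 0.502). A Havcr2 UMI was found in 119 of 360 (33.1%) and 143 of 220 (65.0%) of these cells, and at 1500 UMIs a cell in 9.79% and 21.6%. No single cell held more than 6.91% of the class's Havcr2 UMIs. Entpd1 was lower in the same class, with 134 UMIs (40.5 CPM) against 177 (75.5 CPM), a ratio of 0.537 (0.426 to 0.676). Cells with a Ly6c2 UMI were 68.3% of the class with h219-LLG and 49.1% in control, so both parts were compared. Among cells with Ly6c2 the ratio was 0.422 for Havcr2 and 0.566 for Entpd1, and among cells without it 0.50 and 0.52. Both genes were thus lower past the fold in both parts, and the part of the make-up of the class in these ratios was not tested. In C1q macrophages, where the median log2 ratio of all genes was itself 0.13, Entpd1 was at 81.9 and 78.9 CPM, a ratio of 1.04 (0.725 to 1.51), and at 0.618 with each cell's CPM weighted equally. B cells were at 0.859 (0.579 to 1.27) for Entpd1. Havcr2 in C1q macrophages was at 31.5 and 50.8 CPM, and its ratio of 0.620 had an interval that held 1 (0.375 to 1.04). With the equal weights that ratio was 1.18, so no direction is read for either gene there. In Foxp3 T cells Havcr2 was at 1.07 (0.647 to 1.75), and at 0.585 with barcodes past 2 gates kept.

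Tox was the one gene higher past the fold, in CD4 cells with both sums, with 125 UMIs (102 CPM) against 98 (67.0 CPM), a ratio of 1.53 (1.16 to 2.01). It came to 1.24 when barcodes past 2 gates were kept and to 1.49 with TMM scaling, both within the fold. In the other 8 classes measured it was within the fold, from 0.848 in Foxp3 T cells to 1.37 in CD8 effector cells, and each of these intervals held 1. Cd160 was within the fold in all 4 classes measured, from 0.929 in CD8 effector cells to 1.19 in NK cells and in CD8 cells with both sums, and each interval held 1. Btla was within the fold in its 6 classes. Its B cell level, with 1294 and 1380 UMIs, gave the narrowest interval of all, a ratio of 0.820 (0.759 to 0.885). Lag3 and Tigit reached 50 UMIs in none of the 12 classes. Plasmacytoid dendritic cells, with 40 cells in the h219-LLG library, were below the minimum of 50, and their Lag3 ratio was 1.23 (0.887 to 1.67).

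Stress genes also differed between the libraries, in classes with and without one of the 10 genes past the fold. The stress genes Hspa1a and Hspa1b, which are induced by heat and by tissue handling, were at 24.3 CPM against 305 CPM in Foxp3 T cells and 473 against 2102 CPM in other monocytes or macrophages. They were at 9.97 against 127 CPM in NK cells and 16.3 against 188 CPM in other T cells. In CD4 effector cells, where none of the 10 genes passed the fold, they were at 19.4 against 1028 CPM. C1q macrophages were at 369 against 354 CPM, and plasmacytoid dendritic cells at 284 against 98.8 CPM. Without cells that had a UMI of either, the ratio was 0.567 for Ctla4 and 0.488 for Cd274 in Foxp3 T cells and 0.429 for Havcr2 in other monocytes or macrophages. For Pdcd1 in other T cells it went from 0.740 to 0.974. The part of the stress genes in these ratios was not tested. B cell markers were low in Foxp3 T cells, 24.3 and 13.5 CPM summed over 4 genes (2 and 3 of them with a UMI), and so were myeloid markers, 30.3 and 12.4 CPM over 4 genes (3 and 2 with a UMI). Both sums were higher with h219-LLG, and the part of mRNA from other cell types in the ratios was not tested. The limit on mitochondrial UMIs removed 15.2% and 8.17% of barcodes. Without it, the ratio was 0.637 for Ctla4 in Foxp3 T cells, 0.388 for Cd274 in NK cells and 0.424 for Havcr2 in other monocytes or macrophages.

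Co-occurrence of receptors in single cells was counted over Pdcd1, Lag3, Havcr2, Tigit and Ctla4. Since a deeper cell shows more genes, the expected share was computed for each cell drawn down to 1500 UMIs. At that depth, 10.3% (4.36 to 19.8) of 71 Foxp3 T cells and 17.1% (10.8 to 25.2) of 118 had UMIs of at least 2 of the 5 receptors. CD4 effector cells were at 5.98% (1.87 to 13.8) and 5.93% (2.16 to 12.6), and CD8 effector cells at 3.43% (0.850 to 8.98) and 3.60% (0.542 to 11.5). The intervals of the libraries overlapped in all 3 classes. At full depth, 21 of 72 (29.2%) and 58 of 118 (49.2%) Foxp3 T cells, 14 of 104 (13.5%) and 11 of 64 (17.2%) CD8 effector cells and 1 of 438 and 2 of 309 CD8 naive cells had at least 2. B cells with 2 or more were 2 of 2327 and 0 of 1726.

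**Figure D4:**
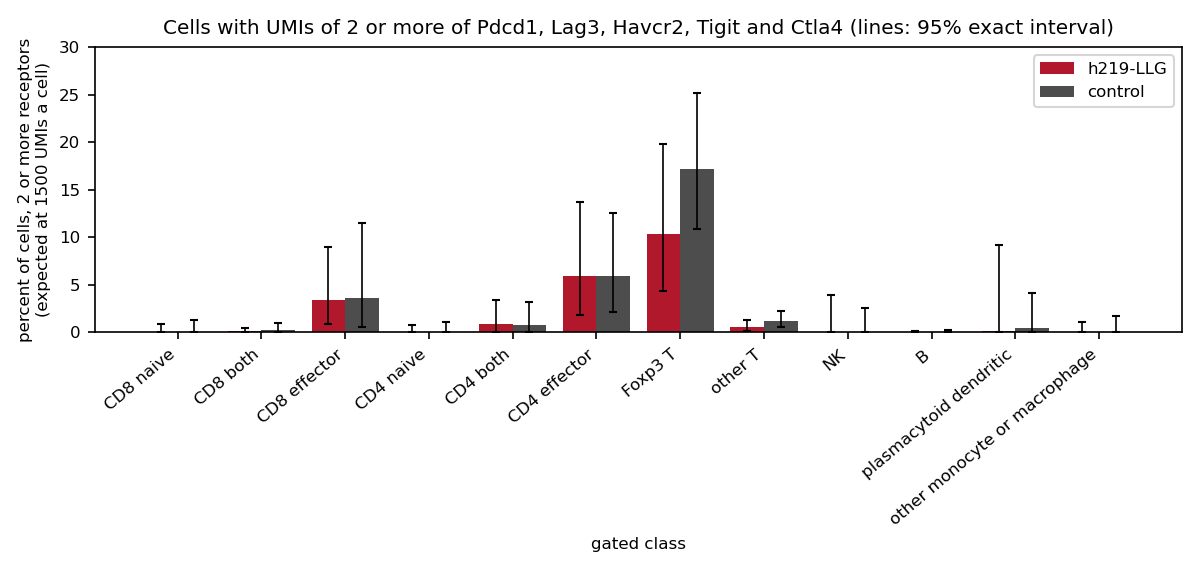
Expected percent of cells with UMIs of at least 2 of Pdcd1, Lag3, Havcr2, Tigit and Ctla4 at 1500 UMIs a cell (bars, with exact 95% intervals as lines) in 12 gated classes (horizontal axis) of the h219-LLG (red) and control (grey) libraries. Foxp3 T cells had the highest share in both libraries, 10.3% and 17.1%, with intervals that overlap.

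Among CD8 effector cells, those with Pdcd1 were compared with those without it. Lag3 was seen in 5 of 12 cells with Pdcd1 and 3 of 92 cells without it in the h219-LLG library, and in 2 of 12 and 3 of 52 in control. Cd160 was seen in 5 of 12 against 20 of 92, and in 6 of 12 against 7 of 52. Ctla4 was seen in 7 of 12 against 30 of 92, and in 7 of 12 against 19 of 52. Tox had 4 of 12 against 16 of 92, and 3 of 12 against 11 of 52. Btla had 1 of 12 against 10 of 92, and 1 of 12 against 2 of 52. Havcr2 had 2 of 12 against 5 of 92, and 0 of 12 against 1 of 52. Entpd1 had 2 of 12 against 5 of 92, and 0 of 12 against 2 of 52. Tigit had 2 of 12 against 0 of 92, and 1 of 12 against 1 of 52. Cd274 had 1 of 12 against 5 of 92, and 1 of 12 against 4 of 52. Cells with Pdcd1 were deeper, with a median of 5452 against 4921 UMIs in the h219-LLG library and 6411 against 4522 in control, and the part of depth in these shares was not tested. In Foxp3 T cells, 12 of 12 and 41 of 42 cells with Pdcd1 had Ctla4, and so did 50 of 60 and 65 of 76 without it. Those with Pdcd1 were deeper here too, with medians of 7007.5 against 4938.5 and 7600 against 5346.5 UMIs.

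Other genes of the pathway came from 3 lists. The list of regulators of exhaustion holds 14 transcription factors and markers, such as the NR4A factors that T cell receptor signals induce. In all 8 T cell classes more of them were lower than higher with h219-LLG, while the median log2 ratio of all genes was at most 0.05 in these classes. In CD4 effector cells 6 of 9 measured were lower (all genes 8.8%) and 0 higher, with a median log2 ratio of -0.78. In CD8 effector cells 4 of 8 were lower (all genes 8.39%) and 0 higher (median -0.49), and in CD4 cells with both sums 6 of 11 were lower (all genes 7.85%) and 0 higher (median -0.63). In Foxp3 T cells 2 of 11 were lower (all genes 11.8%) and 1 higher (9.81%), with a median of -0.23. The higher one was Tcf7, at 136 against 84.2 CPM, a ratio of 1.61 (1.14 to 2.27). Tcf7 was at 0.941 (0.725 to 1.22) in CD8 effector cells and 1.04 (0.803 to 1.36) in CD4 effector cells. Eomes was higher in CD8 cells with both sums, at 1.51 (1.21 to 1.91), and in other T cells, at 1.81 (1.13 to 2.94). The list thus did not move in one direction. Nr4a3 had the lowest ratio of the list in effector and Foxp3 T cells, at 63.6 against 213 CPM in CD4 effector cells, a ratio of 0.299 (0.182 to 0.472). It was at 67.7 against 161 CPM in CD8 effector cells, a ratio of 0.422 (0.273 to 0.644), and at 0.596 (0.414 to 0.844) in Foxp3 T cells. Irf4, a factor of T cell activation, had a ratio of 0.344 in CD8 naive cells and 0.336 in CD4 naive cells. B cells also had 4 of 10 of these genes lower (all genes 4%) and 1 higher (6.79%), with Nr4a1 at 0.512 (0.484 to 0.542). NR4A genes are also early-response genes of handled cells, and the part of handling was not tested.

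Of 8 other inhibitory receptors, 2 to 7 could be measured in each T cell class. Vsir, which encodes VISTA, had ratios of 1.61 (1.30 to 2.00) in CD8 naive cells and 1.45 (1.16 to 1.81) in CD4 naive cells, and of 2.12 (1.59 to 2.87) in C1q macrophages. It was at 0.719 (0.451 to 1.15) in CD8 effector cells. Klrg1, a receptor of activated Tregs and effector cells, was lower in Foxp3 T cells, at 42.5 against 110 CPM, a ratio of 0.386 (0.229 to 0.623), and in other T cells, at 0.218 (0.0936 to 0.454). In NK cells it was higher, at 2.18 (1.49 to 3.19). Of 10 ligands and binding partners, 6 were measured in other monocytes or macrophages and 0 passed the fold (all genes 7.93% higher, 4.58% lower). Cd80, a ligand of CTLA-4, was at 24.2 against 35.4 CPM there, a ratio of 0.683 (0.496 to 0.940). In C1q macrophages 4 were measured, of which 3 were higher (all genes 21%) and 1 lower (5.72%). Lgals9 was at 1.87 (1.31 to 2.72), Ceacam1 at 2.19 (1.29 to 3.94) and Cd86 at 1.56 (1.10 to 2.26). Lgals3, a galectin that binds LAG-3, was the lower one, at 2574 against 6020 CPM, a ratio of 0.427 (0.407 to 0.449). Its direction varied among the lymphocytes, at 5.87 in CD4 naive, 2.64 in NK and 2.05 in CD8 effector cells, but 0.216 in CD8 naive, 0.485 in CD4 effector and 0.621 in other T cells.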

How the data were processed

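The deposited matrices hold unnormalized UMI counts for each gene in each barcode. The submitters' processing notes name Cell Ranger 5.0.0 and mm10 for them. Barcodes with at least 200 genes, 500 UMIs and under 10% mitochondrial UMIs were kept and gated on markers (at least 2 UMIs a lineage). Barcodes past 2 gates were left out as likely doublets, except T with NK markers (a class of its own) and Siglech with myeloid markers (plasmacytoid dendritic). Intervals are exact: Poisson for CPM, Clopper-Pearson for shares, conditional binomial for ratios. A count of 0 allows 3 UMIs. Shares at 1500 UMIs are means over all draws, and their intervals use the expected number of cells. All 10 genes are described, with the value of each ratio past the fold. Gene positions are from GENCODE vM21. Calculations used Python 3.11.15, numpy 2.4.6 and scipy 1.17.1. The ratio interval was checked on simulated Poisson counts, the model it assumes. That check leaves out the uneven spread of UMIs between cells, so it does not show how the interval performs on these data. The genes, gates and lists were chosen with earlier results of these data known. 1 marker of the naive sum is not reported here.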

Additional observations from a re-analysis of the deposited data

How the results depend on the processing

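No paired analysis was possible because each condition had 1 library. The 46 ratios were recomputed under up to 19 alternatives, of which those on parts of a class, heat-shock genes, the effector sum, the cell with most UMIs and the minimum of 30 cells were chosen after seeing the data. Of 741 values, 720 stayed within the counting interval of the reported ratio and 21 did not. No ratio past the fold whose interval left out 1 changed sides of 1. Alternatives that alter only the fold, the minimum of UMIs or the minimum of cells leave each ratio as it is. Their values are among the 720 by construction, so that count overstates the agreement. The count of lower pairs, 13 of 46, was 21 of 57 measured with barcodes past 2 gates kept, 6 of 23 with cells thinned to 1500 UMIs, and 4 of 46 at a fold of 2. The count of higher pairs, 1, was 2 with barcodes past 2 gates kept (Btla in Foxp3 T cells at 1.53 and Tox in B cells at 1.84, not Tox in CD4 cells with both sums), with 200 to 2500 genes and under 5% mitochondrial UMIs, and with the mean of per-cell CPM. It was 5 with a minimum of 20 UMIs, and 0 with TMM scaling or at a fold of 2. Ratios within the fold could change sides. Ctla4 in B cells ranged from 0.439 to 1.86, and Cd274 in other monocytes or macrophages from 0.801 to 1.42. The share of cells with 2 or more receptors rests on depth. Without thinning it was 13.5% and 17.2% in CD8 effector cells, 16.7% and 15.3% in CD4 effector cells and 29.2% and 49.2% in Foxp3 T cells. At 3000 UMIs it was 14.4% and 10.5% in CD4 effector cells and 17.8% and 32.3% in Foxp3 T cells. The class with the highest level changed most often under the limit of 2500 genes, in 7 of 20 combinations of a gene and a library, where Lag3 passed from plasmacytoid dendritic cells, which are deep, to Foxp3 T cells. Lag3 and Tigit were too shallow for any ratio in T cells.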
